A study of Mus musculus with 2 samples.

Results

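The genes described here are 10 transcription factor genes with known roles in the specification and maturation of Purkinje cells, together with their close paralogs: Rora, Foxp1, Foxp2, Foxp4, Ebf1, Ebf2, Ebf3, Skor1, Skor2 and Bcl11a. They were chosen by name, for their known roles, with earlier results of these data known, and each was measured by 1 probe set, giving 10 of the 19503 genes named on the array. The samples were 2 RNA fractions from pooled cerebella of Tg(Pcp2-L10a-Egfp) mice at postnatal day 7. In these mice the promoter of Pcp2, a gene active in Purkinje cells, drives ribosomal protein L10a fused to a green fluorescent protein. Antibodies against the fluorescent protein pulled down the tagged ribosomes with their mRNA (translating ribosome affinity purification, the TRAP sample), and the RNA that the beads did not hold formed the unbound sample. Both groups therefore carried the transgene and had the same age, and the labels name no treatment. The strain background and the number of animals pooled were not stated in the labels.

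Purkinje cells are the large GABAergic output neurons of the cerebellar cortex. They arise from the ventricular zone of the embryonic cerebellum and, in the first postnatal weeks, grow their dendrites and receive their synapses. RORA is an orphan nuclear receptor whose loss in the staggerer mouse arrests Purkinje cell maturation. The FOXP proteins are forkhead repressors, the EBF proteins are helix-loop-helix factors of the COE family, the SKOR proteins are corepressors related to SKI, and BCL11A is a zinc finger protein that works with chromatin remodelling complexes.

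Upstream sequence was examined for these genes because RORA acts through the half-site AGGTCA, forkhead proteins bind the motif TGTTTAC, and EBF proteins bind a palindrome, the EBF consensus. RefSeq promoter windows of the GRCm38.p6 assembly were found for 7 of the 10 genes (Rora, Foxp1, Foxp4, Ebf1, Ebf3, Skor1 and Bcl11a), and the 250 bases before each listed start were searched on both strands. The windows of Foxp4 and Bcl11a are shown as those of the genes most above unbound in TRAP that had one, that of Rora as the receptor, and that of Pcp2 as the promoter region at the origin of the tag and a known RORA target. Each is the most upstream window listed, written 5′ to 3′, with capitals marking AGGTCA.
Rora (chr9:68653536-68653785, plus strand): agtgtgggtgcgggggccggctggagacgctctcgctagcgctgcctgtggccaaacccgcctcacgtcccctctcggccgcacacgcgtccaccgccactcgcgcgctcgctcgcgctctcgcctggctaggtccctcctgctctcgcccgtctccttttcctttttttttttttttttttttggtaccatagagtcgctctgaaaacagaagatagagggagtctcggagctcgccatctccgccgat
Foxp4 (chr17:47924633-47924882, minus strand): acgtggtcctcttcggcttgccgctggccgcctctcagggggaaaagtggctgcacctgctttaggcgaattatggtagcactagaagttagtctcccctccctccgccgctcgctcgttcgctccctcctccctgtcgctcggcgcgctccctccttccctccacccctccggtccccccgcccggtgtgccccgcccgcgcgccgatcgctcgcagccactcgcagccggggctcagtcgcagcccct
Bcl11a (chr11:24080445-24080694, plus strand): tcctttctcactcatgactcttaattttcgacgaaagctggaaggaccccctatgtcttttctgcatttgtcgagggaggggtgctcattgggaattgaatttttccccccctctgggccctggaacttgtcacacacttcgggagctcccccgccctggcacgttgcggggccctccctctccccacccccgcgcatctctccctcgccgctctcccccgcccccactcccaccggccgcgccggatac
Pcp2 (chr8:3625548-3625797, minus strand): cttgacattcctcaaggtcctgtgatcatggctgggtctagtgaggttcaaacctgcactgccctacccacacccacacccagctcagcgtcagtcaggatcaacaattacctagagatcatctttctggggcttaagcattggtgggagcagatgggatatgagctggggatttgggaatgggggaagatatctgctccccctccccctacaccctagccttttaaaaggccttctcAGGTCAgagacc

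The Pcp2 window shown held 1 AGGTCA, beginning 12 bases before the start, and of its 3 windows at later starts the last held a separate one, 26 bases before that start. Of the other RORA targets with a window, Pcp4 held 1 match, 164 bases before the start, and Slc1a6 held none. None of the 12 windows of the 7 factor genes held the half-site, the forkhead motif or the EBF consensus on either strand. Over all 32851 windows of that length, 14.0% held the half-site, 3.17% the forkhead motif and 0.779% the EBF consensus. A missing match says only that these letters were not in these windows. The median GC content of the most upstream window was 62.0% over the 7 genes (40.0% in Ebf1 to 80.0% in Ebf3), beside 60.8% over 8560 genes above the floor defined below. Of CpG dinucleotides, these windows held a median of 26, beside 17 for the same 8560 genes.

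Each fraction was hybridised to 1 array, so no test could be run and every difference below is one between 2 arrays without a replicate check. Values are log2 signals as deposited, and each difference is TRAP minus unbound. A gene was counted as above the floor when it read more than 7.08 (the median over all probe sets and both arrays) on 1 or both arrays, which left 10524 genes. Genes are called apart when they differ at least 2-fold. Different probe sets bind with different strength, so levels are compared between the arrays for 1 gene and never between genes. Pcp2 read 12.98 in TRAP and 11.65 in unbound, 2.52-fold higher in TRAP, so the unbound RNA also held Purkinje cell transcripts. Rpl10a, the gene of the tagged ribosomal protein, was a second planned check. Averaged over 4 probe sets it was 1.45-fold higher in TRAP, short of 2-fold. All 11 measured Purkinje cell markers outside the transcription factors were higher in TRAP, and 8 of those reached 2-fold. Their median difference was 1.24. The matching shares were 47.1% and 7.94% over the 8757 genes above the floor on both arrays.

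Purkinje cell factor genes were mostly higher on the tagged ribosomes. Of the 10 genes, 8 were higher in TRAP by some amount, against 44.1% of all genes above the floor. At least 2-fold higher in TRAP were 4 of the 10 (Skor2, Foxp4, Ebf2 and Bcl11a), where the share among all genes was 8.11%. None of the 10 reached 2-fold toward unbound, where the share was 18.6% of all genes above the floor on 1 or both arrays. The median difference of the 10 genes was 0.85, and that of all genes above the floor was -0.13. Because each of the 10 exceeded the floor on both arrays, none entered through 1 high array alone. The shares above include genes over the floor in unbound alone, which had to be higher there. The matched background is the 8757 genes above the floor on both arrays. Among those, 47.1% had the larger value in TRAP by any amount, and 7.94% reached 2-fold in that direction. Toward unbound, 13.0% reached 2-fold, and the median difference was -0.05. Against this background the contrast toward unbound is smaller. Both samples are fractions of bulk RNA from pooled cerebella, so a difference between them does not measure the number of cells of a type or the RNA per cell. What sets each difference was not tested.

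**Figure D1:**
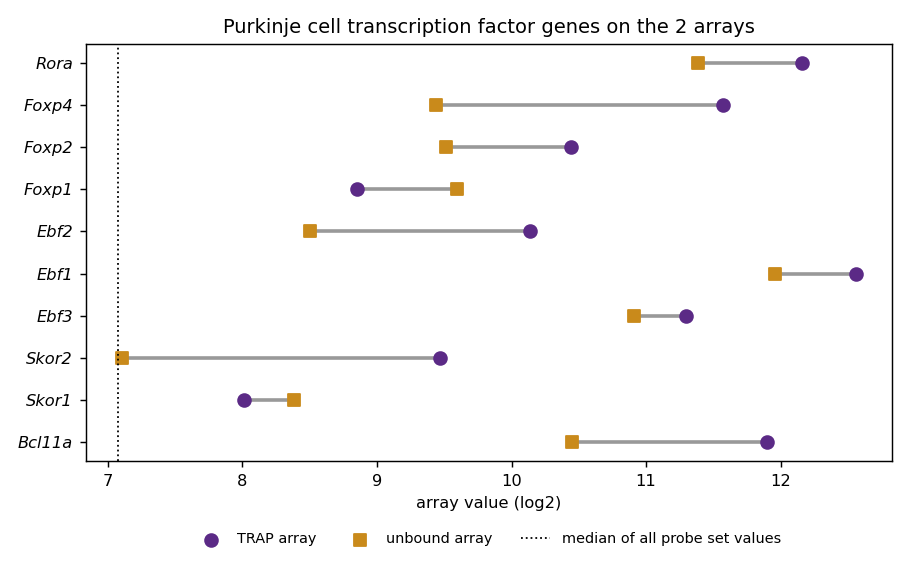
Log2 array value (horizontal axis) of the 10 factor genes on the TRAP array (circles) and the unbound array (squares), 1 array each, with a dotted line at the floor of 7.08. The circle lies to the right of the square for 8 genes and to the left for Foxp1 and Skor1, and the unbound value of Skor2, 7.11, lies next to the floor.

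Rora, the nuclear receptor gene, read 12.16 in TRAP and 11.39 in unbound. It was 1.71-fold higher in TRAP and did not reach 2-fold on the deposited scale, with 86.8% of genes having a lower difference. With the median of each array subtracted its difference was 1.10, past 2-fold. Its paralog Rorb, another orphan receptor, read 6.27 in TRAP and 8.63 in unbound. The TRAP value of Rorb lay below the floor, so the size of its difference is uncertain. A gene above the floor in unbound alone had to be higher there, so its direction is not set against that of Rora.

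The forkhead genes differed among themselves. Foxp4 read 11.57 in TRAP and 9.44 in unbound. Its difference of 4.38-fold ranked 50th from the top of 10524 genes. Foxp2, the family member best known from speech and motor learning, read 10.45 and 9.52. It was 1.90-fold higher in TRAP, short of 2-fold, and it passed only with the array medians subtracted, at 1.26. Foxp1 read 8.85 in TRAP and 9.59 in unbound, so that the unbound array was the higher one by 1.67-fold. The difference of Foxp4 exceeded that of Foxp1 by 2.87 on the log2 scale and that of Foxp2 by 1.20. A gap between paralogs is not altered by subtracting array medians, and for Foxp4 over Foxp1 it was 2.75 after quantile normalization and 2.76 after removal of a loess trend.

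All 3 measured EBF genes of the list were higher in TRAP, but by different amounts. Ebf2, which is known from a subset of Purkinje cells, read 10.14 in TRAP and 8.50 in unbound, 3.11-fold apart and 189th from the top. Ebf1 read 12.56 and 11.96, and Ebf3 read 11.30 and 10.91. These are differences of 0.60 and 0.39, both short of 2-fold under each of the scalings tried. The difference of Ebf2 exceeded that of Ebf1 by 1.04 and that of Ebf3 by 1.25. The fourth paralog, Ebf4, read 6.72 and 7.19, close to the floor on both arrays.

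The SKOR genes separated as well. Skor2, a corepressor gene of Purkinje cells that is required for their expression of Sonic hedgehog, read 9.47 in TRAP and 7.11 in unbound. Its 5.14-fold difference was the largest of the 10 and ranked 29th of all genes above the floor. The unbound value was only just above the floor, and with no detection call its fold is uncertain. Skor1 read 8.01 in TRAP and 8.38 in unbound, a difference of -0.37 that shrank to -0.04 with the array medians subtracted and to -0.05 after quantile normalization. Skor2 exceeded Skor1 by 2.73 in difference. The more distant relatives Ski and Skil, corepressors of TGF-beta signalling, differed by -0.23 and -0.45, and Ski turned positive (0.10) with the array medians subtracted.

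Bcl11a read 11.90 in TRAP and 10.45 in unbound, which is 2.73-fold higher in TRAP and 295th from the top. Its paralog Bcl11b, better known from corticospinal neurons and T cells, read 7.10 and 6.58, with the unbound value below the floor. At a stricter 4-fold, Skor2 and Foxp4 remained of the 10 genes, where the share among all genes was 0.741%. The same 4 genes that passed 2-fold had a larger difference than Pcp2, whose promoter drives the tag, and the other 6 had a smaller one.

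**Figure D2:**
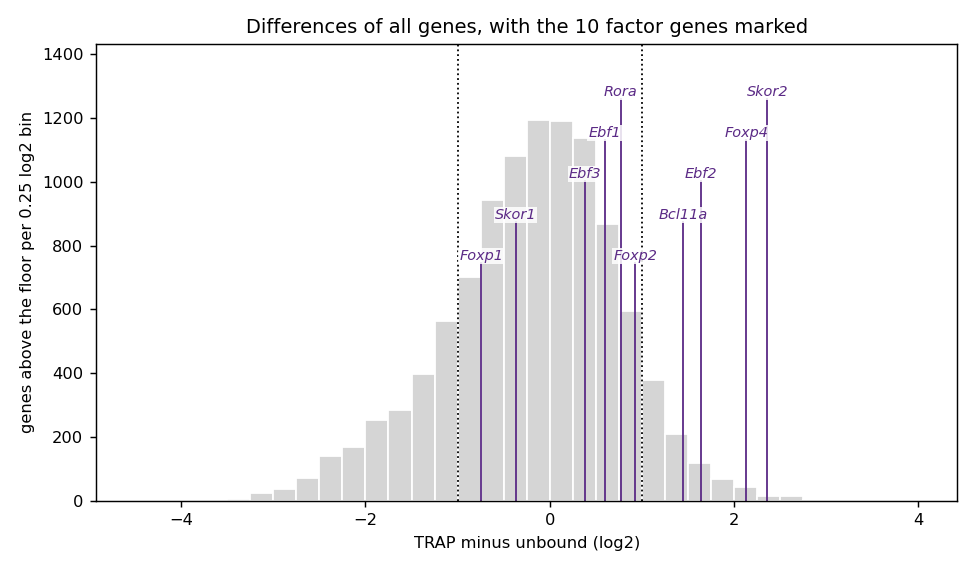
Histogram of the TRAP minus unbound difference (log2, horizontal axis) over the 10524 genes above the floor, as the number of genes per bin of 0.25, with a line at each of the 10 factor genes and dotted lines at 2-fold (line heights differ only to separate the names). Skor2, Foxp4, Ebf2 and Bcl11a lie beyond the right dotted line, and Foxp1 and Skor1 are the only ones of the 10 left of 0.

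Known RORA targets in Purkinje cells were compared next. Of 7 such genes, 5 had a value and all 5 were higher in TRAP. Of these 5, 4 reached 2-fold, against 7.94% of all genes above the floor on both arrays, and the median difference of the 5 was 1.24. Apart from Pcp2 itself the 4 were Slc1a6, a glutamate transporter gene of Purkinje dendrites, at 2.51, Shh, the mitogen that Purkinje cells send to granule cell progenitors, at 1.24, and Calb1, a calcium buffer gene, at 1.05. Shh read 8.43 in TRAP and 7.19 in unbound, the unbound value again near the floor. Calb1 fell short of 2-fold after quantile normalization (0.95) and after removal of the loess trend (0.84). Pcp4 differed by 0.49. These genes are also Purkinje cell markers, so their values do not separate RORA targets from other genes of the cell.

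Genes that act earlier in the lineage lay on both sides. Of 12 measured specification factors, 6 were above the floor on both arrays, of which 2 were higher in TRAP and 4 higher in unbound, with a median difference of -0.61. Among all 8757 genes above the floor on both arrays, 47.1% were higher in TRAP and 13.0% were at least 2-fold higher in unbound. Neurog1 and Neurog2 exceeded the floor in unbound alone and are not counted, since such a gene had to be higher there. The LIM homeobox genes Lhx1 and Lhx5, which postmitotic Purkinje cells express, were the 2 higher in TRAP. Lhx1 read 11.43 and 10.46, and Lhx5 read 9.96 and 8.97. Both lay just short of 2-fold as deposited (0.97 and 0.99) and passed it with the array medians subtracted (1.30 and 1.33), Lhx5 also after quantile normalization (1.13) and removal of the loess trend (1.03). Ptf1a, the helix-loop-helix gene that commits ventricular zone progenitors to a GABAergic fate, read 5.81 and 5.47, below the floor on both arrays, as did Gsx1, Gbx2 and Dmbx1. Olig2 and En2 were at least 2-fold higher in unbound, at -1.93 and -1.21, En2 no longer so with the array medians subtracted (-0.88). Olig2 is also a gene of the oligodendrocyte lineage.

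Partners and cofactors, most of which are expressed in many cell types, lay on both sides. Of 20 genes above the floor on both arrays, 5 were higher in TRAP, against 47.1% of all such genes. None of the 20 was 2-fold higher there (7.94% of all), while 6 were at least 2-fold higher in unbound (13.0% of all). The median of the 20 was -0.52. With the array medians subtracted 8 of the 20 were higher in TRAP and 2 were at least 2-fold higher in unbound. On that scale the shares of all genes above the floor on 1 or both arrays were 59.1% and 11.8%. These are the values of the 20 genes as a list. Nr2f2, an orphan nuclear receptor gene, had the highest difference of the 20 at 0.87, or 1.20 with the array medians subtracted. Kat5, an acetyltransferase gene, and Atxn1, the gene expanded in spinocerebellar ataxia and known to act with RORA, differed by 0.55 and 0.50. The zinc finger paralogs Zfp423 and Zfp521, whose proteins bind EBF factors, contrasted: Zfp423 read 10.43 and 10.51, and Zfp521 read 8.69 and 11.23, a difference of -2.54. Zfp423 turned positive (0.25) with the array medians subtracted. Ctbp2, a corepressor gene, differed by -1.81, and its paralog Ctbp1 by -0.52.

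Transcription factor genes of the other cerebellar lineages were mostly higher in unbound on the same 2 arrays. Of all 8757 genes above the floor on both arrays, 47.1% were higher in TRAP by any amount and 13.0% were at least 2-fold higher in unbound. All 16 granule lineage factors above the floor on both arrays were higher in unbound, and 14 reached 2-fold. Their median was -1.59. Nfia and Zic5 were at the lower end, at -2.59 and -2.51. Mycn differed by -0.03, being positive with the array medians subtracted and after quantile normalization. For interneurons and nuclear neurons, 5 of 7 factors above the floor on both arrays reached 2-fold toward unbound, and the median was -2.14. For glia it was 6 of 11, with a median of -1.11, while Hopx (0.93) and Id4 (0.56) were higher in TRAP. Hopx passed 2-fold with the array medians subtracted (1.27) and narrowly after quantile normalization (1.00), but not after removal of the loess trend (0.93). None of these 3 lists had a gene at least 2-fold higher in TRAP on the deposited scale, where the share of all genes above the floor on both arrays was 7.94%. The share of the 10 Purkinje cell factors was not tested against them.

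**Figure D3:**
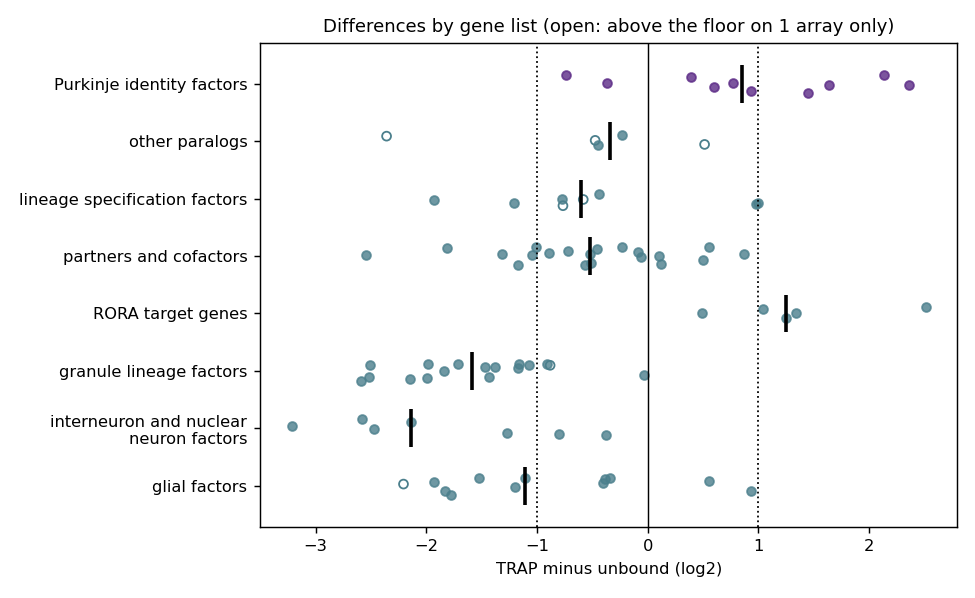
TRAP minus unbound difference (log2) of each gene above the floor in 8 lists, 1 point per gene (vertical scatter has no meaning), filled when the gene was above the floor on both arrays and open when on 1 alone, with a bar at the median of the filled points and dotted lines at 2-fold. The medians of the Purkinje cell factors (0.85) and the RORA targets (1.24) lie right of 0, and those of the granule lineage (-1.59), interneuron and nuclear neuron (-2.14) and glial factors (-1.11) lie left of -1.

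Markers of other cell types were mostly lower in TRAP. These lists share genes with the factor lists above, so they are not independent of them. Shared are Atoh1 and Barhl1 for granule cells, Pax2 and Tfap2b (the 2 interneuron markers counted here), and Hopx and Sox10 for glia. Among all 8757 genes above the floor on both arrays, 47.1% were higher in TRAP. Above the floor on both arrays, 8 of 8 granule cell markers, 2 of 2 interneuron markers, 4 of 5 astrocyte and Bergmann glia markers, 2 of 2 oligodendrocyte lineage markers and 2 of 3 vascular, mural and fibroblast markers were higher in unbound. Of the vascular group, Col1a2 turned to TRAP under each of the 3 other scalings. No microglia marker was above the floor on both arrays. A further 3 interneuron, 3 astrocyte, 4 oligodendrocyte, 2 vascular and 3 microglia markers exceeded the floor in unbound alone, so that the floor fixed their direction. The linear signal summed over each whole list, dim genes included, was 4027 in TRAP and 11820 in unbound for the 8 granule cell markers, and 7364 and 18044 for the 8 astrocyte and Bergmann glia markers. Such a sum follows its brightest probe set: Fabp7 made up 67.2% of the astrocyte sum in TRAP and 53.9% in unbound. Rbfox3 made up 55.1% of the granule cell sum in TRAP and 42.9% in unbound. For the 7 interneuron markers the sums were 955 and 3690, of which Tfap2b made up 18.2% and 43.7%. For the 7 of the oligodendrocyte lineage the sums were 972 and 3774. The sums were 1096 and 2251 for 10 vascular, mural and fibroblast genes, and 544 and 968 for 8 microglia genes. In TRAP, 7 of these 10 genes and all 8 microglia genes read below the floor. Array signals have no true 0, so no marker can be said to be absent. The part of these cells in the values of the 10 factor genes was not tested.

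The values were rescaled in 3 ways. Subtracting array medians (6.92 for TRAP, 7.25 for unbound) added 0.33 to every difference, and it moved the median of all genes from -0.13 to 0.20. On that scale 6 of the 10 factor genes were at least 2-fold higher in TRAP, Rora and Foxp2 being added, where the share of all genes was 16.1%. After quantile normalization and after removal of the loess trend it was 4 of the 10, with shares of 11.8% and 9.35%. None of the 10 changed sign, so that 8 were higher in TRAP under each of the 3 scalings, where the shares of all genes were 59.1%, 52.0% and 46.9% in the same order. With a threshold of 1.5-fold on the deposited scale, 7 of the 10 were higher in TRAP (18.8% of all genes) and Foxp1 alone in unbound (30.9%). Among all genes at least 2-fold apart, the part higher in TRAP was 30.4% as deposited, 57.6% with medians subtracted, 45.6% after quantile normalization and 36.1% after removal of the loess trend.

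**Figure D4:**
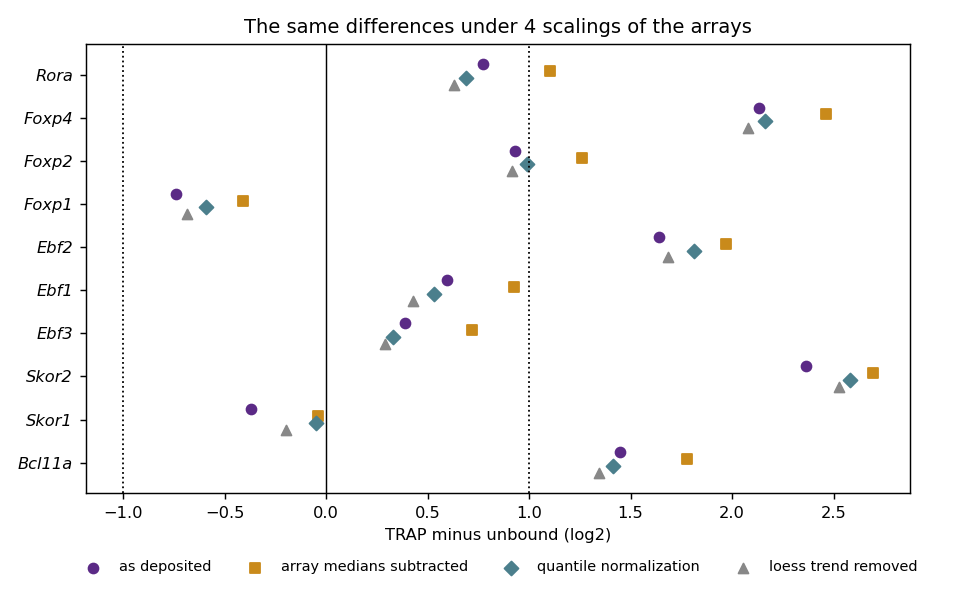
TRAP minus unbound difference (log2, horizontal axis) of the 10 factor genes under 4 scalings of the arrays, with dotted lines at 2-fold. Skor2, Foxp4, Ebf2 and Bcl11a lie beyond 2-fold under each of the 4, Rora and Foxp2 only with the array medians subtracted, and Foxp1 and Skor1 stay left of 0.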

How the data were processed

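The authors deposited 1 table with a log2 expression value for each of 22097 probe sets on 2 whole-transcript mouse arrays, and the submitters' processing notes name Affymetrix Power Tools. Which version, background correction, normalization and summary were applied is not stated in the labels. A log base of 2 was taken from the range of the values. The table has no detection calls, and the 1 array per fraction limits the precision.

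Of the probe sets, 20999 have 1 gene in the platform annotation, 91 have several (not used) and 1007 have none listed. Symbols were updated by Entrez identifier through the RefSeq genes of GRCm38.p6, which matched 20959. Probe sets were averaged per gene (19503 genes). Analysis used Python 3.11.15, pandas 2.3.3 and statsmodels 0.14.6, and the scripts were tested on simulated data.

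The 10 genes and the 15 gene lists, the 10 genes being one of them (150 genes, 139 with a value) were chosen with earlier results of these data known. Named are the 10 genes, genes of the 4 lists on paralogs, specification, partners and RORA targets, and Pcp2 and Rpl10a. From other lists the 2 at each end are named where needed, with genes shared between lists, the brightest gene of a sum, and Col1a2. With 2 arrays a pattern is 1 difference, so genes were not ranked by likeness. Alternatives were other scalings, floors, probe set choices and fold thresholds. Counts over gene lists use genes above the floor on both arrays, a choice made after the data had been seen. Shares of all genes under other scalings and fold thresholds are over the 10524 genes above the floor on 1 or both arrays. Protein sequences were not used here.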

Additional observations from a re-analysis of the deposited data

How the results depend on the processing

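At a threshold of 1.5-fold, 7 of the 10 factor genes were higher in TRAP and 1 in unbound (Foxp1, at -0.74), and at 4-fold 2 were higher in TRAP. With the array medians subtracted, the median difference of the 10 genes was 1.18, past 2-fold, against 0.85 as deposited. The floor and the choice of probe set cannot change a difference here, as each of the 10 genes has 1 probe set. Of 30 values of the 10 genes under the 3 other scalings, 28 kept their direction and their side of 2-fold, and 2 passed it (Rora and Foxp2 with medians subtracted). Among all genes, the median difference was positive with array medians subtracted (0.20), after quantile normalization (0.045) and with no floor (0.10). Counts of all genes higher in TRAP and in unbound were 853 and 1955 as deposited, 1692 and 1244 with medians subtracted, 1983 and 3252 at 1.5-fold and 78 and 457 at 4-fold. Those higher in unbound were 986 with a floor at the 75th percentile, which left out Skor1, and 1138 with a floor on both arrays, a setting added after the data had been seen. No paired analysis was possible because each group has 1 array and the labels give no replicate numbers.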
